A study of Rattus norvegicus with 12 samples.

Results

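The 10 genes described here encode transcription factors of the cardiac lineage, Gata4, Gata6, Nkx2-5, Mef2a, Mef2c, Mef2d, Tbx5, Tbx20, Hand2 and Esrrg, and were found by their symbols among the 34599 genes of the count table. Their mRNA was measured by RNA-seq of left ventricular (LV) tissue from 12 rats, 4 in each of 3 groups. All were male SD rats with the chest opened, and tissue of the MI region was collected 1 day after surgery. Sham rats had no coronary ligation, MI rats had the left anterior descending coronary artery tied, and iCarP+/Light+ rats had the same ligation plus Chlorella, an oxygen-releasing green alga, injected into the infarcted LV, the iCarP light-scattering patch glued to the epicardium with CCS@gel, and illumination. The effects of alga, patch, adhesive and light therefore cannot be told apart, and a group with the patch but no light (iCarP+/Light-) was not analysed here. The study's methods state an age for SD rats only in the section on another rat experiment, so none is given for these rats. Libraries held 14064414 to 17136958 counted reads, and mitochondrial genes took 22.8% to 28.9% of the reads of Sham rats, 8.52% to 11.5% of those of MI rats and 7.14% to 14.2% of those of iCarP+/Light+ rats. The labelled tissue was checked against heart muscle markers, of which all 18 found in the table were above 0 in every rat. Their summed level was 65070 to 68500 CPM (counts per 1000000 of the scaled library) in the Sham group, 4174 to 8308 CPM in the MI group and 3556 to 9601 CPM in the iCarP+/Light+ group.

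These factors bind DNA next to each other at the regulatory regions of heart genes and switch on the genes of contraction, calcium cycling and energy metabolism. GATA4 and GATA6 are zinc finger proteins, NKX2-5 is a homeodomain protein, MEF2A, MEF2C and MEF2D are MADS-box proteins, TBX5 and TBX20 are T-box proteins, HAND2 is a basic helix-loop-helix protein, and ESRRG is an orphan nuclear receptor that drives mitochondrial genes. Inherited loss of GATA4, NKX2-5, TBX5 or TBX20 causes congenital heart disease, and the same factors stay expressed in the adult ventricle. Several are not restricted to heart muscle cells: GATA6 and HAND2 are also made by other cells of the heart wall, and MEF2 genes are made by endothelial cells and leukocytes as well.

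Promoter windows of RefSeq (assembly GRCr8, 250 bases before to 50 after the gene's start) were matched by symbol for 8 of the 10 genes, 11 windows in all because Esrrg had 4. The windows were searched on both strands for the letters bound by GATA factors (AGATAA or TGATAA or AGATAG or TGATAG), for TNAAGTG (NKX2-5), for AGGTGT (T-box), for AAGGTCA (ERR half-site), for TATAAA, and for the MEF2 site and the CArG box, which is bound by SRF. Of all 33469 windows, 30.3% held GATA letters, 11.5% the NKX2-5 letters, 13.6% the T-box letters, 4.61% the ERR half-site, 14.2% TATAAA, 3.29% a MEF2 site and 1.64% a CArG box. A single match was found in the windows of Gata6 (T-box), Mef2a (MEF2 site), Mef2d, Tbx5 and Hand2 (GATA in each), and 6 of the 11 windows held none of these letters. The 3 windows printed here are those whose match lies before the start, at positions 211 of 300 for Mef2a, 26 for Tbx5 and 79 for Hand2, and only the 250 bases before the start are shown, with the match in capitals. They lie on the minus strand at chr1:130392163-130392412 (Mef2a), chr12:42395360-42395609 (Tbx5) and chr16:37931489-37931738 (Hand2).
Mef2a: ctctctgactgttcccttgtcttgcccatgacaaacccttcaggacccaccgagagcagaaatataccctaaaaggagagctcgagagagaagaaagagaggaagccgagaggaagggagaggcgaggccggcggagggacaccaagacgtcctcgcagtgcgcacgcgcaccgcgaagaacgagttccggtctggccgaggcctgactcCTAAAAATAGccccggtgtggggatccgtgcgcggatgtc
Tbx5: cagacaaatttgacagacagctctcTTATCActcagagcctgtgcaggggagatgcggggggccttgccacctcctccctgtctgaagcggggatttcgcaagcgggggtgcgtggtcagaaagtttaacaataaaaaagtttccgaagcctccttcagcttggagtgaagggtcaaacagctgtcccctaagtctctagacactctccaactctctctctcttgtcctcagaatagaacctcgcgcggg
Hand2: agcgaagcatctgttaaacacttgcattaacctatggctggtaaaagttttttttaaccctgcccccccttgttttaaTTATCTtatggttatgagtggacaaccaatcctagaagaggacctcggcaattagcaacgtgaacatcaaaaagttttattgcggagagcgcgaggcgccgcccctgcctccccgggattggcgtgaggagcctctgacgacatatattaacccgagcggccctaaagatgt
The Mef2a match, CTAAAAATAG, has the form bound by the MEF2 proteins themselves, and TTATCA and TTATCT read as GATA letters on the opposite strand. A match is a description of the letters and no binding was measured.

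With libraries scaled by edgeR's TMM method, all 10 factors were lower 1 day after infarction. In MI against Sham rats every one was lower with an adjusted p below 0.05 (edgeR quasi-likelihood test, Benjamini-Hochberg over 15101 genes), and for every one the lowest Sham rat was above the highest MI rat. Among all genes tested, 33.6% were called lower and 30.2% higher, and 31.4% were lower and 27.6% higher without overlap. The median log2 fold change of the 10 was -1.78, against -0.06 over all genes. The falls ran from -0.57 for Mef2a to -2.68 for Esrrg on the log2 scale. Values in CPM use the same scaling. When libraries were scaled to their totals only, the median over all genes moved to 0.52, Mef2a turned to 0.02 and Mef2c (-0.35) and Mef2d (-0.34) lost their calls, while relative to that median the 10 stood between -0.50 and -2.61. In bulk tissue, fewer cells of a type and less RNA per cell cannot be told apart.

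**Figure D1:**
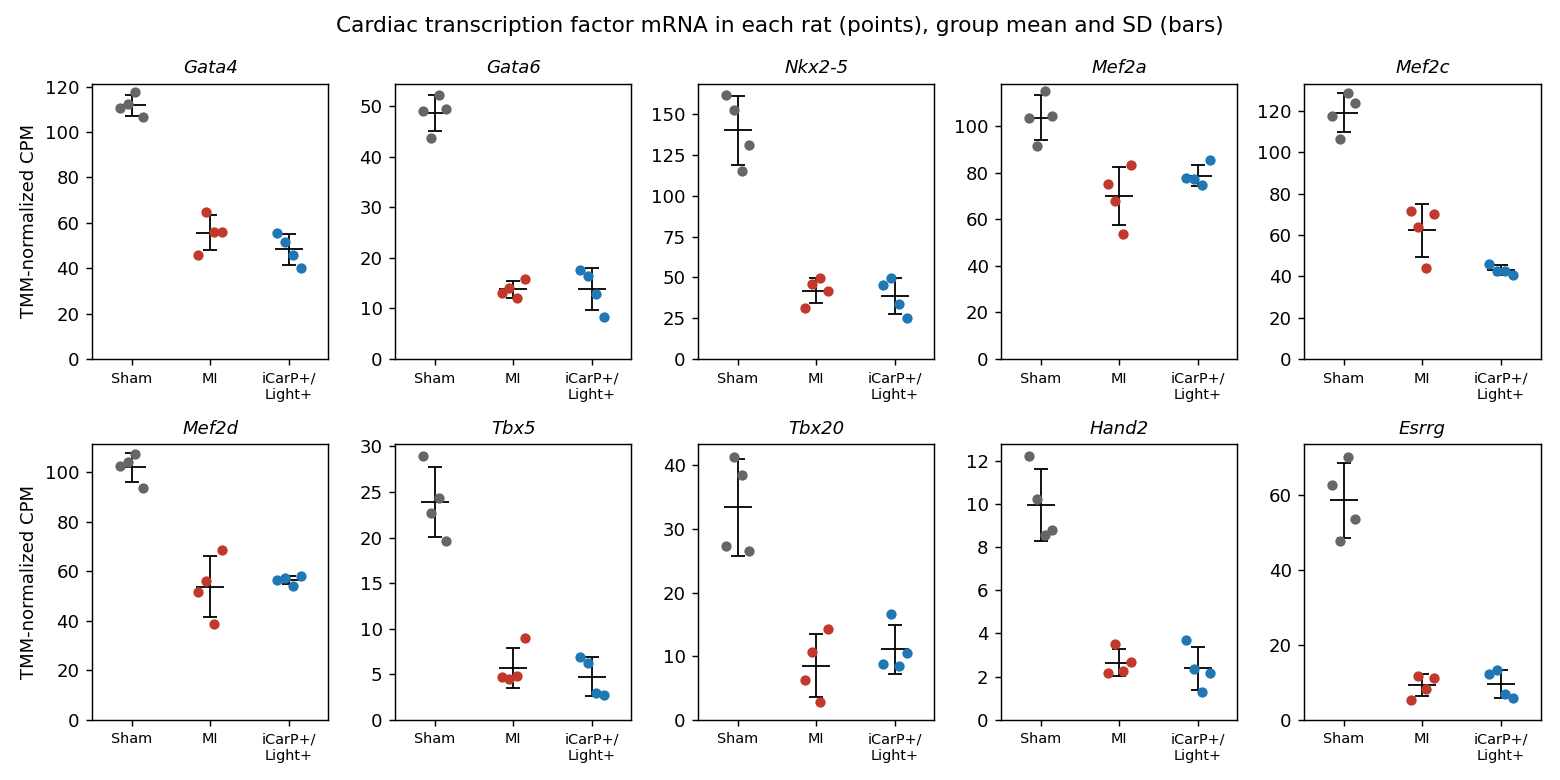
Level of each of the 10 factors in TMM-normalized CPM (vertical axes, starting at 0, a separate scale for each gene) in the 4 Sham, 4 MI and 4 iCarP+/Light+ rats. Each point is 1 rat and bars show the mean and SD. With this scaling the Sham rats lie above all rats of the other groups in every panel, and MI and iCarP+/Light+ rats overlap.

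Gata4, on chromosome 15 (rn6, 46386712 to 46432965), stood at 110.4, 112, 117 and 107 CPM in Sham rats 1, 2, 3 and 5. It stood at 45.8, 64.7, 56.2 and 55.9 CPM in MI rats 1, 3, 4 and 5, and at 55.6, 51.6, 45.7 and 40.2 CPM in iCarP+/Light+ rats 1, 2, 4 and 5. All 8 infarcted rats were thus far below the Sham rats, whose spread was small. The fall from Sham to MI was -1.01 log2 (SE 0.124, adjusted p = 1.33e-05, edgeR).

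Gata6, on chromosome 18 (2416552 to 2446338), encodes the second GATA factor of the heart muscle and fell further. In the same order of rats it read 49.1, 43.7, 52.2 and 49.3 CPM in Sham and 12.98, 14.1, 12.03 and 15.9 CPM in MI. It read 17.7, 16.4, 12.9 and 8.37 CPM in iCarP+/Light+ rats, the widest spread of the 3 groups. The change from Sham to MI was -1.82 log2 (SE 0.191, adjusted p = 3.36e-06, edgeR).

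Nkx2-5 lies on chromosome 10 (16635989 to 16638764). Its levels in Sham rats were 162, 152, 115 and 131 CPM. They were 31.1, 45.6, 49.3 and 41.4 CPM in MI rats and 45.1, 49.7, 33.9 and 25.0 CPM in iCarP+/Light+ rats. The Sham rats varied widely and still stood clear of both infarcted groups, and the fall to MI was -1.74 log2 (SE 0.210, adjusted p = 1.06e-05, edgeR).

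The 3 MEF2 genes, which act downstream of calcium and stress kinases, fell least. Mef2a (chromosome 1, 128209971 to 128341263) read 104, 91.5, 115 and 104 CPM in Sham, 75.3, 67.7, 53.9 and 83.2 CPM in MI, and 77.6, 77.3, 74.7 and 85.4 CPM in iCarP+/Light+ rats. The lowest Sham rat was only a little above the highest iCarP+/Light+ rat, so the gap between groups was narrow. Its change in MI was -0.57 log2 (SE 0.129, adjusted p = 0.0018, edgeR). Mef2c (chromosome 2, 11658568 to 11822787) read 118, 107, 129 and 124 CPM in Sham, 71.5, 63.7, 43.8 and 70.01 CPM in MI, and 46.2, 42.5, 42.8 and 40.6 CPM in iCarP+/Light+ rats. Rat 4 of the MI group was the low one, and the iCarP+/Light+ rats lay close together at about its level. The fall of Mef2c in MI was -0.94 log2 (SE 0.140, adjusted p = 6.43e-05, edgeR). Mef2d (chromosome 2, 187512164 to 187538026) read 102, 104, 107 and 93.8 CPM in Sham, 51.5, 56.2, 38.7 and 68.4 CPM in MI, and 56.6, 57.0, 54.1 and 58.1 CPM in iCarP+/Light+ rats. The same MI rat was lowest, and the fall in MI was -0.92 log2 (SE 0.141, adjusted p = 7.67e-05, edgeR).

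Both T-box genes fell to 0.239 (Tbx5) and 0.254 (Tbx20) of their Sham level. Tbx5 (chromosome 12, 42097626 to 42148146), which with NKX2-5 and GATA4 controls conduction and contractile genes, read 28.9, 22.7, 24.4 and 19.6 CPM in Sham rats. It read 4.69, 4.42, 4.75 and 8.99 CPM in MI rats and 6.89, 6.22, 2.98 and 2.74 CPM in iCarP+/Light+ rats. MI rat 5 stood apart from the other MI rats, and still lay under every Sham rat. Tbx20 (chromosome 8, 25850962 to 25904570), needed by adult heart muscle to keep its calcium and ion channel genes on, read 27.2, 41.4, 38.5 and 26.5 CPM in Sham, 6.22, 10.6, 2.85 and 14.2 CPM in MI, and 8.70, 16.7, 8.40 and 10.5 CPM in iCarP+/Light+ rats. Its MI rats lay far apart. The changes from Sham to MI were -2.07 log2 for Tbx5 (SE 0.318, adjusted p = 8.44e-05) and -1.98 for Tbx20 (SE 0.393, adjusted p = 6.65e-04) in the edgeR fit.

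Hand2, on chromosome 16 (36371489 to 36373546), had the lowest CPM of the 10 genes. It read 12.2, 10.2, 8.58 and 8.77 CPM in Sham, 2.15, 3.51, 2.24 and 2.66 CPM in MI, and 3.69, 2.36, 1.29 and 2.18 CPM in iCarP+/Light+ rats. These levels rest on 19 to 169 counts per library, above the floor of 3 counts in every rat. The fall in MI was -1.92 log2 (SE 0.285, adjusted p = 6.4e-05, edgeR).

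Esrrg, on chromosome 13 (106463368 to 106683436), showed the deepest fall of the 10. Its levels were 62.7, 47.8, 70.3 and 53.6 CPM in Sham, 5.41, 11.8, 8.28 and 11.2 CPM in MI, and 12.2, 13.2, 6.77 and 5.84 CPM in iCarP+/Light+ rats. The MI level was 0.156 of the Sham level in the fit, at -2.68 log2 (SE 0.293, adjusted p = 4.75e-06, edgeR).

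Levels of different genes were compared as CPM per kilobase of the gene length in the table. In Sham rats Nkx2-5 led with 104 ± 15.7 (SD, n = 4) CPM per kilobase, followed by Mef2d at 47.7 ± 2.73, Gata4 at 33.3 ± 1.34 and Mef2a at 30.5 ± 2.86, of which Gata4 and Mef2a overlapped. Gata6 stood at 22.5 ± 1.65. After it came Mef2c (18.5 ± 1.48), Hand2 (15.4 ± 2.61), Tbx20 (15.1 ± 3.45) and Esrrg (11.0 ± 1.86), and neighbours among these 4 overlapped. Tbx5 was lowest at 6.82 ± 1.11, below every other factor. In MI rats the order began with Nkx2-5 at 31.2 ± 5.85, Mef2d at 25.1 ± 5.75 and Mef2a at 20.6 ± 3.68, whose ranges overlapped in turn, so Nkx2-5 no longer stood clear of the rest. At the other end were Esrrg at 1.72 ± 0.551 and Tbx5 at 1.63 ± 0.625 CPM per kilobase. The highest mean was 15.3 times the lowest in Sham, 19.1 times in MI and 21.3 times in iCarP+/Light+ rats.

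Against untreated infarction, 9 of the 10 factors had no call in rats with the illuminated patch and alga, and none was called higher. Mef2c was called lower, where 2.01% of all genes tested were called lower and 11.6% higher. No factor separated MI from iCarP+/Light+ rats without overlap, against 4.37% of genes lower and 12.1% higher. The median of the 10 was -0.06 log2, against 0.01 over all genes. Scaled to library totals only, all genes had a median of -0.25, and Gata4 was called lower as well (-0.47, or -0.22 relative to that median).

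Mef2c changed by -0.53 log2 from MI to iCarP+/Light+ rats (SE 0.14, 95% interval -0.83 to -0.23, adjusted p = 0.0215, edgeR), a mean of 43.0 ± 2.34 (SD, n = 4) against 62.3 ± 12.8 (SD, n = 4) CPM. The ranges overlapped, at 40.6 to 46.2 CPM in iCarP+/Light+ and 43.8 to 71.5 CPM in MI rats, because of MI rat 4. The call was lost without MI rat 1, 3 or 5 or iCarP+/Light+ rat 2 or 4, at adjusted p = 0.0504 to 0.0688 in the edgeR fit with log2 fold changes of -0.53 to -0.46. Without MI rat 4 it was -0.67. Leukocyte markers moved in the same comparison, with 6 of 9 called higher and a summed level of 1894 to 2930 CPM in MI and 3905 to 8579 CPM in iCarP+/Light+ rats. The alarmin genes S100a8 (78.9 ± 35.3 to 813 ± 359 CPM) and S100a9 (190 ± 79.1 to 2186 ± 1030 CPM, SD, n = 4) had most of the difference between the sums of the group means. Cd68 (-0.39 log2) and the macrophage receptor gene Csf1r (-0.56) had values below 0 without a call, and with libraries scaled to their totals only the list had 5 higher and 2 lower. S100a8, S100a9 and Csf1r were named after their values were seen. Of the lymphocyte markers 1 of 9 was called, lower (Cd3e, a chain of the T cell receptor complex, -1.25 log2, adjusted p = 0.0426, edgeR), with summed levels of 23.8 to 34.2 and 20.6 to 28.2 CPM. No lymphocyte marker was called in 9 of the 12 fits that left out 1 rat (any rat but Sham 5, MI 1 and iCarP+/Light+ 1). Endothelial markers had no call among 9, with summed levels of 931 to 1371 and 1194 to 1363 CPM. The part of these cells in the Mef2c value was not tested.

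The intervals of the other 9 factors hold the differences compatible with the data. They were narrowest for Gata4, at -0.21 log2 (95% interval -0.47 to 0.06), Mef2a, at 0.17 (-0.11 to 0.45), and Mef2d, at 0.07 (-0.23 to 0.38). Nkx2-5 stood at -0.12 (-0.57 to 0.32) and Gata6 at 0.01 (-0.40 to 0.42). The intervals were wide for Tbx5, at -0.27 (-0.96 to 0.42), Hand2, at -0.15 (-0.77 to 0.48), Esrrg, at 0.06 (-0.56 to 0.68), and Tbx20, at 0.39 (-0.45 to 1.23), so a doubling of Tbx20 lies inside its interval.

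**Figure D2:**
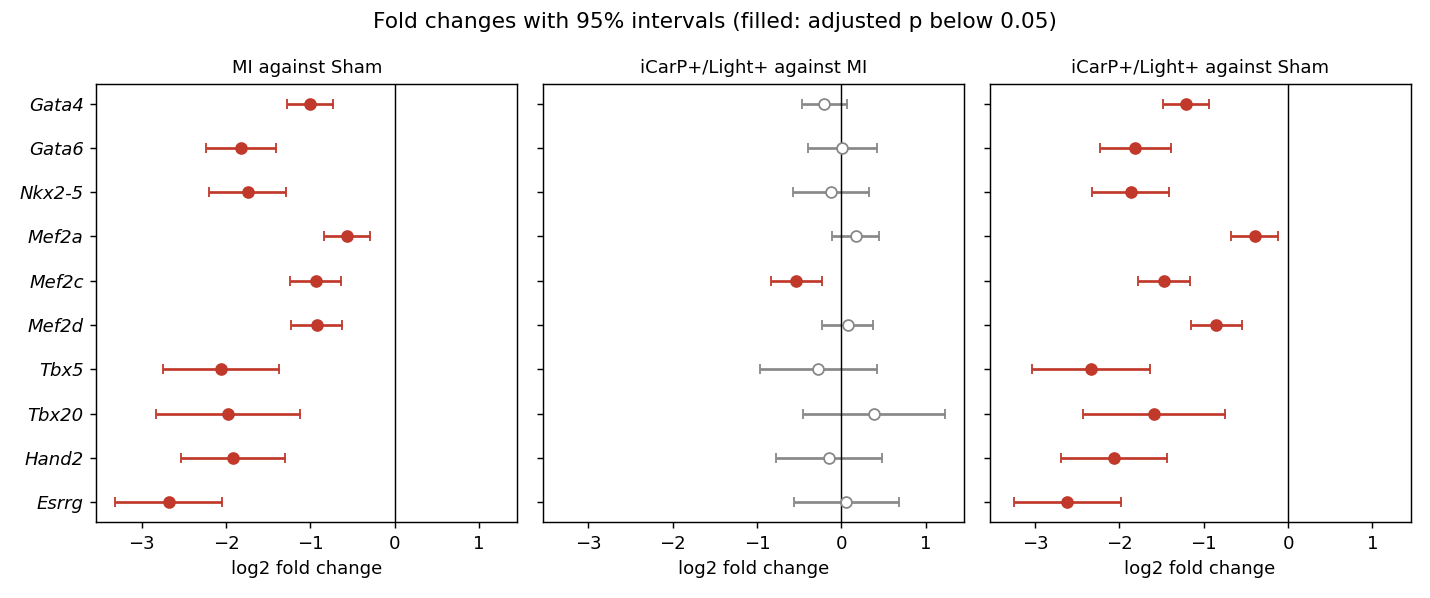
Log2 fold change of each factor (horizontal axis, points) with its 95% interval (bars) in MI against Sham, iCarP+/Light+ against MI and iCarP+/Light+ against Sham, from the edgeR fit over 12 rats. Filled red points have an adjusted p below 0.05 over all genes. All 10 lie below 0 in both comparisons with Sham under TMM scaling (Mef2a in MI is at 0.02 when libraries are scaled to their totals only), and Mef2c alone is filled in the middle panel.

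Against Sham, iCarP+/Light+ rats had all 10 factors called lower and lower without overlap, where 33% of all genes were called lower and 33.5% higher, and 31.6% were lower and 31.9% higher without overlap. This comparison shares the Sham rats with that of MI. The changes ran from -0.40 log2 for Mef2a (adjusted p = 0.015, edgeR) to -2.62 for Esrrg (adjusted p = 4.95e-06, edgeR), with a median of -1.70 against 0.02 over all genes. Mef2c stood at -1.47, Mef2d at -0.85, Gata4 at -1.21, Gata6 at -1.81, Nkx2-5 at -1.87, Tbx5 at -2.34, Tbx20 at -1.59 and Hand2 at -2.06 log2. Scaled to library totals only, Mef2a was at -0.08 and lost its call.

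Ratios between related factors within a rat do not depend on library scaling. The 6 pairs were chosen after the values above were seen, so their log2 ratios of counts are a description, with no test. How often other gene pairs separate the groups without overlap was not computed. Among single genes, 31.4% were lower and 27.6% higher without overlap in MI against Sham rats. The shares were 4.37% lower and 12.1% higher in iCarP+/Light+ against MI rats. The log2 ratio of Mef2c to Mef2a was 0.20 ± 0.037 for Sham, -0.18 ± 0.113 for MI and -0.87 ± 0.142 for iCarP+/Light+ rats (SD, n = 4 each), with no overlap in any of the 3 comparisons. The means differed by -0.38 log2 from Sham to MI and by -0.69 from MI to iCarP+/Light+ rats. The second of these differences ranged from -0.74 to -0.63 with any 1 rat left out. The ratio of Mef2c to Mef2d was 0.23 ± 0.151 in Sham and 0.22 ± 0.184 in MI, and -0.39 ± 0.099 in iCarP+/Light+ rats. It differed from MI to iCarP+/Light+ by -0.61 log2 without overlap, and between MI and Sham by -0.01 with overlap.

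The log2 ratio of Gata6 to Gata4 was -1.20 ± 0.109 for Sham, -2.01 ± 0.225 for MI and -1.85 ± 0.287 for iCarP+/Light+ rats. It was lower without overlap in both infarcted groups than in Sham. Mef2d to Mef2a stood at -0.02 ± 0.150 for Sham, -0.40 ± 0.140 for MI and -0.48 ± 0.052 for iCarP+/Light+ rats, again below Sham without overlap. The ratio of Esrrg to Esrra, the gene of the broadly expressed relative ERRα, went from -1.53 ± 0.448 to -3.32 ± 0.634 and -3.90 ± 0.784 log2. Both infarcted groups were below Sham without overlap. Tbx20 to Tbx5 overlapped in every comparison, at 0.47 ± 0.409, 0.40 ± 0.838 and 1.30 ± 0.678 log2.

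**Figure D3:**
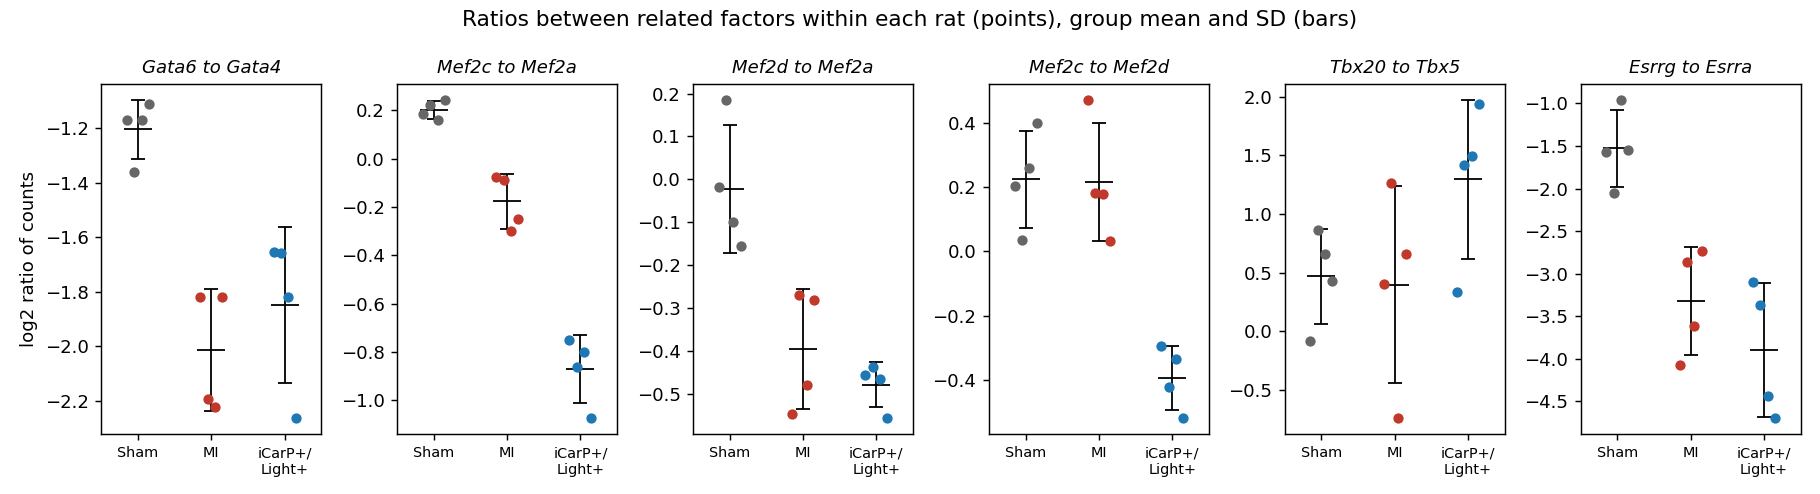
Log2 ratio of the counts of 2 related factors in the same rat (vertical axes, a separate scale for each pair) for the 4 Sham, 4 MI and 4 iCarP+/Light+ rats, with points for rats and bars for mean and SD. The ratio of Mef2c to Mef2a steps down from Sham to MI to iCarP+/Light+ rats without overlap, and that of Mef2c to Mef2d is lower in iCarP+/Light+ rats alone.

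Of 12 genes of the same families, 9 could be tested. In MI against Sham rats 7 fell, 1 rose and 1 was not called. Gata5, a GATA factor of endocardial and heart muscle cells, fell by 3.47 log2 (adjusted p = 3.76e-06, edgeR), more than any of the 10 factors in its fitted value, and Esrrb, the third ERR gene, fell by 2.56 (adjusted p = 1.85e-05, edgeR). Tbx1, a factor of the embryonic pharynx and outflow tract, rose by 1.30 log2 from a very low level, 0.877 ± 0.966 (SD, n = 4) to 2.18 ± 0.582 (SD, n = 4) CPM, with overlapping groups (adjusted p = 0.0488, edgeR). Its call was lost without any 1 of 9 rats, at adjusted p of up to 0.121 in the edgeR fit and fold changes down to 1.01. Esrra changed by -0.94 log2 in MI (adjusted p = 1.4e-04, edgeR) and, alone among these relatives, was called in iCarP+/Light+ against MI rats, higher by 0.61 (adjusted p = 0.0165, edgeR), from 88.1 ± 11.1 to 135 ± 21.2 (SD, n = 4) CPM. That call was lost without MI rat 5 (0.54, adjusted p = 0.0514) or iCarP+/Light+ rat 5 (0.47, adjusted p = 0.0961, edgeR), and with library totals as the only scaling (0.35).

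Partners and co-regulators, the proteins that these factors bind or that modify them, mostly fell too. Of 35 tested, 25 fell, 3 rose and 7 were not called in MI against Sham rats, with a median of -1.02 log2. The lowest fold changes were those of Klf15, a repressor of MEF2 and GATA4 activity in hypertrophy (-3.69 log2, adjusted p = 6.09e-06, edgeR), and Ppara, the fatty acid receptor (-3.29, adjusted p = 7.63e-06, edgeR). The genes that rose were Hopx, a homeodomain protein that binds SRF (1.78 log2, adjusted p = 3.22e-06, edgeR), Hdac4, a class IIa histone deacetylase that represses MEF2 (0.58, adjusted p = 0.0257, edgeR), and Mrtfa, an SRF coactivator (0.38, adjusted p = 0.0162, edgeR), the last named after its value was seen. The call of Hdac4 was lost without Sham rat 2 or 5 or MI rat 1 or 5, at fold changes of 0.40 to 0.58 (adjusted p = 0.051 to 0.0894, edgeR). Scaled to library totals only, 17 of the 35 fell and 9 rose. In iCarP+/Light+ against MI rats 1 of 35 was called, Camta2, a coactivator of NKX2-5, higher by 0.50 log2 (adjusted p = 0.00932, edgeR), but not without iCarP+/Light+ rat 5 (0.39, adjusted p = 0.0608, edgeR). Under that other scaling 6 of the 35 were called, all lower, and Camta2 was at 0.23 without a call.

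Target genes of the factors were taken from general knowledge of the heart, with earlier results of these data known. Several are also heart muscle markers, so these lists are not independent of the marker list. Of 15 targets of GATA4, NKX2-5 and TBX5, 12 fell, 2 rose and 1 was not called in MI against Sham rats. Myh6, the fast cardiac myosin heavy chain, fell by 4.73 log2 (adjusted p = 2.09e-07, edgeR) and Pln, phospholamban, by 4.07 (adjusted p = 2.79e-05, edgeR). The members that rose were the natriuretic peptide genes, Nppa by 2.91 (adjusted p = 1.27e-06, edgeR) and Nppb by 1.38 (adjusted p = 0.00147, edgeR). None of the 15 was called in iCarP+/Light+ against MI rats.

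Of 12 MEF2 targets, 7 fell, 1 rose and 4 were not called in MI. Ckm, muscle creatine kinase, fell by 3.34 log2 (adjusted p = 1.36e-06, edgeR) and Myom2, an M-band protein, by 3.11 (adjusted p = 8.91e-06, edgeR). Xirp2, an actin-binding protein of the intercalated disc, rose by 2.37 (adjusted p = 2.38e-06, edgeR), from 168 ± 29.4 to 867 ± 187 (SD, n = 4) CPM. Nr4a1, an immediate-early nuclear receptor, was the target called in iCarP+/Light+ against MI rats, higher by 1.72 log2 (adjusted p = 0.0025, edgeR). All 10 ERR targets fell in MI, most of all Perm1, a muscle regulator of mitochondrial genes, by 5.46 log2 (adjusted p = 1.14e-06, edgeR) and Cpt1b, which brings fatty acids into mitochondria, by 3.29 (adjusted p = 3.45e-06, edgeR). Vegfa, the vascular growth factor, was the ERR target called in iCarP+/Light+ against MI rats, higher by 1.45 log2 (adjusted p = 0.00704, edgeR). Scaled to library totals only, the targets of GATA4, NKX2-5 and TBX5 had 11 lower and 3 higher of 15 in MI, the MEF2 targets 7 lower and 4 higher of 12, and the ERR targets 8 lower and none higher of 10.

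**Figure D4:**
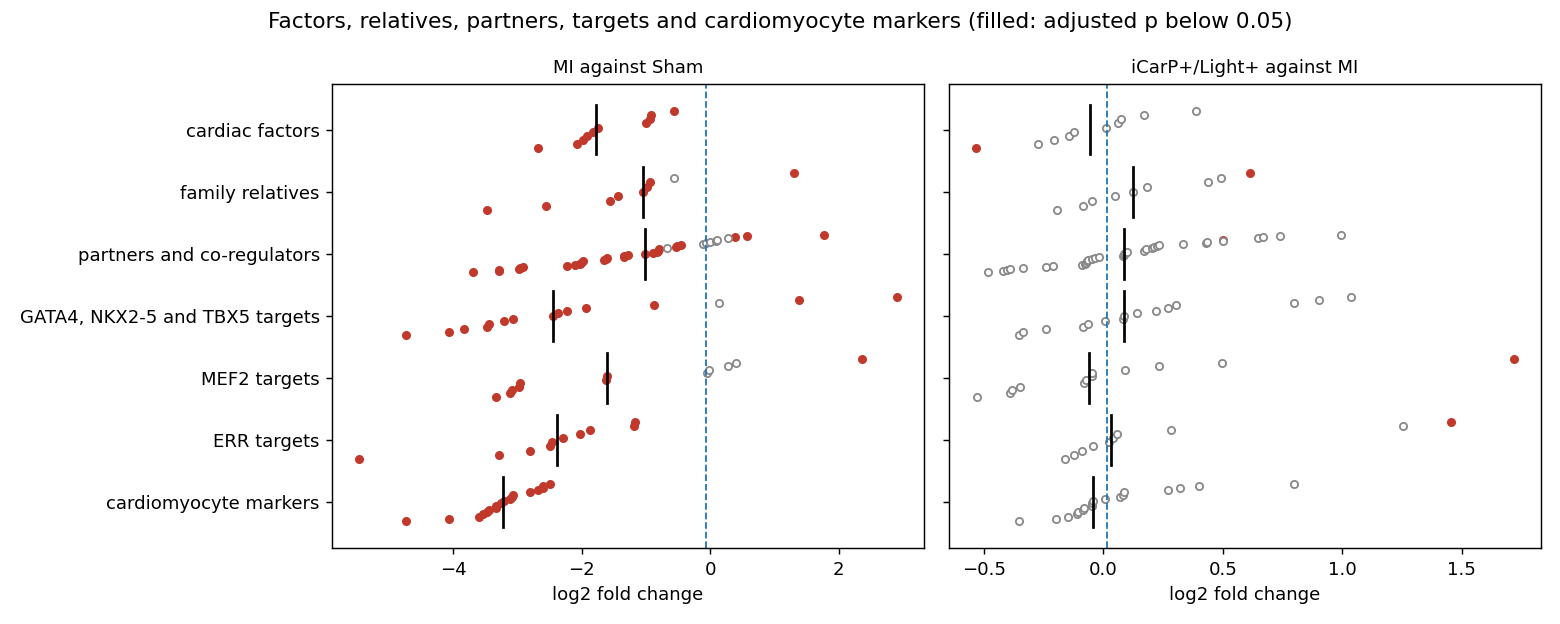
Log2 fold change (horizontal axis) of the tested genes of each list in MI against Sham and in iCarP+/Light+ against MI, filled where the adjusted p was below 0.05. Black bars are list medians and the dashed line is the median of all genes tested. In MI against Sham the medians of the 7 lists plotted run from -1.02 for partners to -3.23 for heart muscle markers, with -1.78 for the factors.

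The median of the factors was less negative than that of heart muscle markers. All 18 markers tested fell in MI, with a median of -3.23 log2, and none was called between MI and iCarP+/Light+ rats. Endothelial markers had a median of -0.73, with 8 of 9 called lower (3 of 9 when scaled to library totals only, with 1 higher, and 5 of 9 called with DESeq2 size factors or without iCarP+/Light+ rat 5, which is not in this comparison but enters the shared fit), and fibroblast markers a median of -1.19, with 7 of 10 called lower (5 of 10, and 1 higher). Their first tested genes were Cdh5, the cadherin of endothelial junctions (-1.28 log2), Kdr, the VEGF receptor (-1.05), and Tcf21, a fibroblast transcription factor (-1.85), each called, and Pdgfra, a receptor of fibroblasts (-0.24), which was not. Leukocyte markers all rose, 9 of 9 with a median of 3.22, among them Ptprc (3.07), the common leukocyte antigen, and Cd68 (3.53), a macrophage protein.

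Of the remaining lists, 4 of 10 smooth muscle and pericyte markers fell and 1 rose in MI (3 and 3 when scaled to library totals only), with Myh11, smooth muscle myosin, at -1.81 log2 and Acta2, smooth muscle actin, at 0.45 without a call. Lymphocyte markers had 5 of 9 called higher, including Cd3e (2.08) and Cd3g (2.42). Epicardial and mesothelial markers had 1 of 4 called, Wt1, a factor of the epicardium, at -1.67, and Upk3b was too low to test. Among 3 atrial markers tested, Nppa alone was called, while Myl7 (-2.08) and Myl4 (-0.22), the atrial myosin light chains, were not. Myl7 varied widely among Sham rats, from 0.59 to 56.9 CPM. Whether atrial tissue was present in some samples was not tested.

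Each factor was also expressed as its log2 CPM minus the mean log2 CPM of the 18 heart muscle markers in the same rat. On this scale 9 of the 10 factors were higher in MI than in Sham without overlap, and so were 92.9% of all genes tested, so the factors did what nearly all genes did. The difference was smallest for Esrrg, at 0.60 log2, and largest for Mef2a, at 2.73. Between them stood Tbx20 (1.15), Tbx5 (1.22), Hand2 (1.43), Gata6 (1.49), Nkx2-5 (1.56), Gata4 (2.30), Mef2c (2.35) and Mef2d (2.36). Tbx20 overlapped because MI rat 4 was at -6.00, within the Sham range of -6.11 to -5.51. In iCarP+/Light+ against Sham rats all 10 were higher without overlap, as were 93% of all genes, and in iCarP+/Light+ against MI rats none separated the groups, as against 2.74% of genes higher and 0.45% lower.

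**Figure D5:**
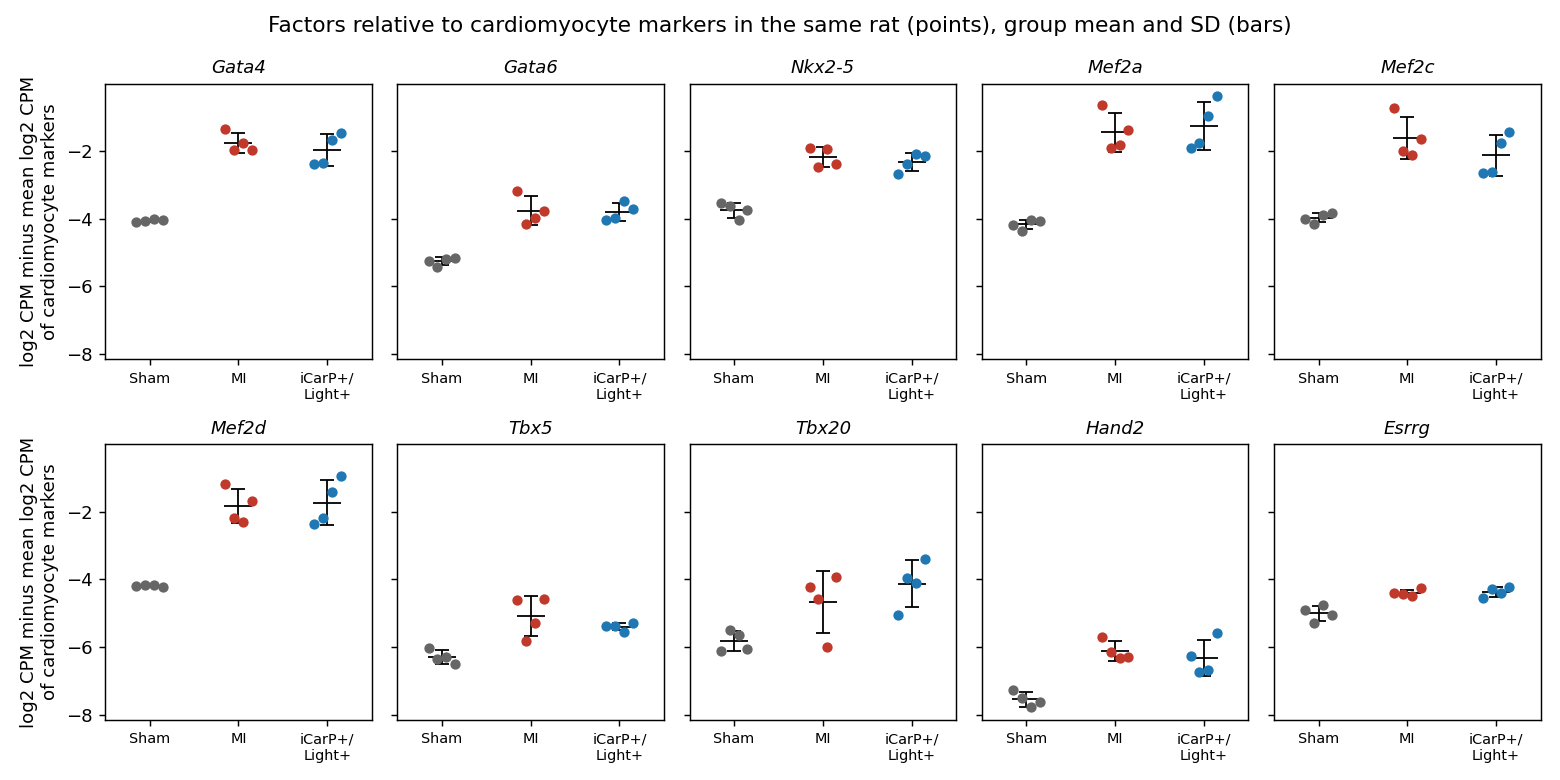
Log2 CPM of each factor minus the mean log2 CPM of 18 heart muscle markers in the same rat (vertical axis, shared by all panels), for Sham, MI and iCarP+/Light+ rats, with points for rats and bars for mean and SD. Infarcted rats are higher than Sham rats for 9 factors, with an overlap for Tbx20, and the Mef2 genes and Gata4 show the largest steps.

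Rats within the infarcted groups differed in many factors at once. In the iCarP+/Light+ group the lowest rat was rat 5 for 6 factors and rat 4 for the other 4, and rats 1 and 2 were highest for 8. The mean log2 CPM of heart muscle markers was 8.19 and 8.04 in rats 1 and 2, and 7.19 and 6.80 in rats 4 and 5. In the MI group rat 4 was lowest for 5 factors and rat 1 for 4, and rat 5 was highest for 5. Heart muscle markers there stood at 6.88 in rat 1, 7.999 in rat 3, 7.58 in rat 4 and 7.77 in rat 5, against 10.8 to 10.9 in Sham. The factors low in MI rat 4 included all 3 MEF2 genes and Tbx20, although its heart muscle markers were not the lowest of the group. What set these differences between rats was not tested.

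For each factor the protein-coding gene with the most similar profile was found among 13659, by the root mean square difference of centred log2 CPM over the 12 rats. The closest match of any factor was that of Gata4 with Mettl22, at 0.087 log2, and the loosest that of Tbx20 with Pde3a, at 0.245. Mef2d was nearest to Csnk2a1 (0.0876), Mef2a to Plekhg2 (0.0913), Mef2c to Itga6 (0.118) and Nkx2-5 to Spsb4 (0.131). Gata6 was nearest to Epb41l4a (0.144), Esrrg to Ghr (0.144), Hand2 to Acad8 (0.207) and Tbx5 to Mypn (0.231). Itga6, an integrin subunit, had mean levels of 259, 143 and 85.8 CPM in Sham, MI and iCarP+/Light+ rats. That it steps down with Mef2c in iCarP+/Light+ rats follows from its choice by similarity over these same rats. No factor had another of the 10 as its nearest gene.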

How the data were processed

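The authors deposited raw read counts per gene for the 12 rats, with gene symbol, identifier, position and length. The submitters' processing notes name HISAT2, featureCounts and the build rn6, with versions, annotation and strand setting not given in the sources used here. No gene in the table overlapped the 10 factors. Groups came from the labels. Nothing says that rats were processed in batches.

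Counts were fitted in R 4.3.3 with edgeR 4.0.16, where filterByExpr (minimum count 10) kept 15101 of 34599 genes. After TMM scaling, all 12 rats entered a quasi-likelihood fit whose terms were the 3 group means. The 3 comparisons were tested with Benjamini-Hochberg adjustment over all genes and a threshold of 0.05. Intervals are 95% t intervals of the fit. Log2 CPM used a prior count of 2. All 18 pairs of rats within a group differed by more than counting noise (chi-square per gene 14.0 to 111), so none was a copy. The floor of 3 counts covers counting error only, since reads carried no molecular identifiers.

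The factors and gene lists were chosen with earlier results of these data known. The genes named besides the 10 factors were, from each list of relatives, partners and targets, at most the 2 highest and 2 lowest log2 fold changes called in MI against Sham and in iCarP+/Light+ against MI, the nearest gene of each factor, and the first 2 genes of each marker list of other cell types. Mrtfa, S100a8, S100a9 and Csf1r are exceptions, named after their values were seen. Pecam1 and 5 other listed symbols were not found in the table. The ratios within a rat were added after the values were seen.

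Alternatives were DESeq2 size factors, total counts alone, DESeq2 1.42.0, limma-voom (limma 3.58.1), 2 other filters on low counts, leaving out noncoding or mitochondrial genes, fitting the compared groups by themselves, a replicate block and each rat left out in turn. The fits were run on simulated data in which few genes changed, as many up as down. Many genes changed in the rats, so that simulation does not test the choice of scaling. Figures were drawn with matplotlib 3.10.9. GC content of transcripts was not examined, since no genome of the build rn6 was used.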

Additional observations from a re-analysis of the deposited data

Results flagged for a closer look

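Tbx5 in MI rat 5 stood at 8.99 CPM, apart from 4.42 to 4.75 CPM in the other 3 MI rats. The gap was 0.899 of the group's whole range, above Dixon's 95% critical value for 4 samples. It was the 1 such value among 78 groups of 4 looked at (CPM, levels relative to heart muscle markers, and ratios), and chance flags about 1 in 20 groups. Without that rat Tbx5 kept its call in MI against Sham.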

How the results depend on the processing

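All 10 factors kept a lower value in MI and in iCarP+/Light+ than in Sham rats under every alternative except total counts alone, under which Mef2a turned to 0.0247 in MI. That scaling called 7 of the 10 in MI against Sham, and 2 (Mef2c and Gata4) in iCarP+/Light+ against MI rats, where 3926 genes of all were called against 2051. It moved the share of calls that were higher from 47.3% to 73.5% in MI against Sham, from 85.2% to 30.7% in iCarP+/Light+ against MI and from 50.3% to 64.7% in iCarP+/Light+ against Sham, and the median of all genes to 0.52, -0.25 and 0.33 log2. Leaving out 1 rat at a time gave 0 to 1 factor called in iCarP+/Light+ against MI and changed no call of a factor against Sham. Replicate numbers recur between groups although each rat belongs to 1 group, and deviations of same-numbered rats did not go together (r -0.15 to 0.065 over 9 pairs, none over 0.1). With a replicate block no factor was called (0) and 1298 genes were called in iCarP+/Light+ against MI, with Mef2c at -0.46 (adjusted p = 0.0927, edgeR), and Mef2a lost its call against Sham in iCarP+/Light+ rats (-0.31, adjusted p = 0.0602, edgeR). For the lists of relatives, partners and targets, the counts of called genes that moved most were those of iCarP+/Light+ against MI. Total counts alone called 0 relatives, 6 partners and 3 MEF2 targets, the replicate block 0 relatives and 0 partners, DESeq2 3 partners, 2 MEF2 targets and 2 ERR targets, and limma-voom 2 partners. With 1 rat left out the ranges were 0 to 1 relatives, 1 to 3 partners, 0 to 1 targets of GATA4, NKX2-5 and TBX5, 1 to 2 MEF2 targets and 1 to 2 ERR targets. Of 300 fold changes of factors under the 10 alternatives that leave out no rat of the compared groups, 5 lost their call in the same direction, 1 gained a call and 1 changed sign from a called value. Another 3, without a call, changed sign by more than their SE, all in iCarP+/Light+ against MI with total counts alone. They were Gata6 (0.01 to -0.25), Mef2a (0.17 to -0.11) and Mef2d (0.07 to -0.20), where the median of all genes was -0.25. Esrrg, without a call, also changed sign, by less than its SE. With 4 rats a group, the intervals of Tbx5, Tbx20, Hand2 and Esrrg between infarcted groups were wide. Differences inside them are compatible with the data.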
